A study of Mus musculus with 10 samples.

Results

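Amino acid transporter genes were taken here as the 61 genes, of 21000 genes with a RefSeq NM_ transcript on the GRCm38 (mm10) mouse genome, whose symbol starts with Slc1a, Slc3a, Slc6a, Slc7a, Slc36a or Slc38a followed by a number. The Slc6a family gave 21 genes, Slc7a 16, Slc38a 11, Slc1a 7, Slc36a 4 and Slc3a 2. The name rule also took Slc7a6os, a gene beside Slc7a6 on the opposite strand that encodes no transporter, and several Slc6a genes whose products carry neurotransmitters, taurine, creatine or betaine.

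Chromatin immunoprecipitation with sequencing (ChIP-seq) was performed on limb skeletal muscle of male C57BL/6J mice, 10 weeks old by the labels, either fed or starved for 24 h. Antibodies were directed against the glucocorticoid receptor (GR), the lysine demethylase LSD1, and histone H3 mono- or dimethylated at lysine 9 (H3K9me1, H3K9me2). With 1 library for each antibody and condition and 1 input library for each condition, there were 10 libraries and 8 peak lists, so no difference between fed and starved muscle has a replicate check and no test was made. No mouse carried a transgene or a deletion, and the chromatin came from whole muscle, so that a peak can come from any nucleus in the tissue. Both LSD1 libraries carry another library preparation code in the labels than the GR and input libraries. The study asked where GR and LSD1 sit together and how fasting alters this. The lists of a condition share its input library, so the presence of both proteins at one gene is given as their values side by side.

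GR is a nuclear receptor that binds DNA when occupied by glucocorticoids, the steroid hormones that rise during fasting and promote the release of amino acids from muscle protein. Its classical element (GRE) is a pair of inverted hexamers separated by a short spacer. LSD1 removes methyl groups from lysines, H3K4 and H3K9 among them, and acts as a co-regulator. Amino acid transporters set which amino acids cross the plasma or lysosomal membrane. The Slc7a light chains such as LAT1 (Slc7a5) pair with the heavy chain encoded by Slc3a2, Slc38a genes encode sodium-coupled neutral amino acid transporters, and Slc36a genes encode proton-coupled ones. Leucine and arginine that enter in this way are among the signals that activate mTORC1 at the lysosome.

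GR peaks of high enrichment lay inside Slc38a4, which encodes the system A transporter SNAT4. The following 150 bases are the middle of the stretch that the GR fed, GR starved and LSD1 fed peaks had in common in an intron of this gene (build GRCm38, chr15:97004437-97004586, read on the gene's minus strand). Capitals mark the 15 bases nearest to the GRE consensus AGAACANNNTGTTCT, from which they differed at 2 of the fixed positions (A1T and A3T, counted from the 5′ end of the consensus).
Slc38a4 intron: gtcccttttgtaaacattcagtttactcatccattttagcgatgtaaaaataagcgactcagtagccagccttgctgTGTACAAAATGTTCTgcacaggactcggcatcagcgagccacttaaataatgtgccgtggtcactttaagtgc
The second hexamer, TGTTCT, was complete, and both substitutions lay in the first.

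The same search, allowing at most 2 mismatches, is shown for 4 of the other GR peaks near members, each with 15 bases on both sides and read on the strand of the gene.
Slc1a7 (chr4:107962313-107962357, + strand): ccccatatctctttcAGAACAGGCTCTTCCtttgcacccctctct
Slc38a3 (chr9:107670660-107670704, - strand): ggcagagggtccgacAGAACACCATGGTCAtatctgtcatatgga
Slc7a1 (chr5:148395259-148395303, - strand): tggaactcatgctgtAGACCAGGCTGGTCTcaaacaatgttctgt
Slc7a6 (chr8:106169666-106169710, + strand): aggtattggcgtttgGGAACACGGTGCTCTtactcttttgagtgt
Of these, the Slc1a7 sequence lay under a GR fed peak (fold 4.14) and the other sequences under GR starved peaks. Their folds were 2.94 (Slc38a3), 2.63 (Slc7a1) and 2.57 (Slc7a6), where the median of the GR starved list was 2.7. With at most 1 mismatch, no GR peak within 30 kb of a member held a GRE-like sequence, neither among the 27 GR fed peaks nor among the 102 GR starved peaks, while 1.73% of GR fed peaks and 0.596% of GR starved peaks within 30 kb of any NM_ gene did. With at most 2 mismatches, a limit chosen after seeing the data, 3 of 27 GR fed peaks (11.1%) and 6 of 102 GR starved peaks (5.88%) matched, against 7.81% and 3.88% of the peaks near any NM_ gene. The fed matches were both Slc38a4 peaks and the Slc1a7 peak. A match to these letters is a description of the sequence and does not show binding to it.

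The 300 bases from 250 before to 50 after the start site are shown, from RefSeq (GRCm38.p6), for Slc38a2 and Slc38a10, with CG in capitals and read on the minus strand of each gene. They are shown because peaks of 3 of the 4 GR and LSD1 lists touched each window.
Slc38a2 promoter (chr15:96699679-96699978): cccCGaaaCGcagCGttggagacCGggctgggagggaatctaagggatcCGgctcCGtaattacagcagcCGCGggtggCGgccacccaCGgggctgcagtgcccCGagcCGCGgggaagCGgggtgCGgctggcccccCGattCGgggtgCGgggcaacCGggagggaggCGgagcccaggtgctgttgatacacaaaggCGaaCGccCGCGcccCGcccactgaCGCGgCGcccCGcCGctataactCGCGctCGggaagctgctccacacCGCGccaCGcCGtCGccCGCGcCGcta
Slc38a10 promoter (chr11:120151302-120151601): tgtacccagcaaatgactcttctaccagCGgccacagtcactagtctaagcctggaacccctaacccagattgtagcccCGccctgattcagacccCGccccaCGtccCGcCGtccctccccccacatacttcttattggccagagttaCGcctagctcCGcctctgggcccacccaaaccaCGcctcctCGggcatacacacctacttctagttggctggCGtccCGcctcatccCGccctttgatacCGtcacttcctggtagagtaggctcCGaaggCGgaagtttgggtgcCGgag
The Slc38a2 window held 41 CG dinucleotides and the Slc38a10 window 17. The median was 9.5 over the promoters of the 44 members found in this table and 7.0 over all 32851 promoters in it.

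A promoter peak was counted when the midpoint of a peak lay from 1 kb upstream to 100 bp downstream of any start site of the gene. GR had a promoter peak at 5 of 61 members in fed muscle (8.2%, 95% exact binomial interval 2.72 to 18.1%), against 15.1% of all NM_ genes. In starved muscle it had one at 10 members (16.4%, 8.15 to 28.1%), against 26.0%. LSD1 had a promoter peak at 8 members in fed muscle (13.1%, 5.84 to 24.2%), against 25.4%, and at 10 members in starved muscle (16.4%, 8.15 to 28.1%), against 18.0%. Only for the LSD1 fed list did the share of all genes lie outside the interval of the members. These intervals cover counting error over 61 genes only, and the genes were treated as independent although a few are neighbours. In all, 18 members (29.5%) had a GR or LSD1 promoter peak in at least 1 of the 4 lists, against 41.7% of all NM_ genes. Members with no promoter peak in any of the 8 lists include Slc1a1, Slc1a2, Slc1a3, Slc38a1, Slc7a2 and Slc7a11.

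With the window widened to 30 kb on both sides, GR peaks were listed near 18 members in fed muscle (29.5%, 18.5 to 42.6%; all genes 42.2%) and near 37 in starved muscle (60.7%, 47.3 to 72.9%; all genes 65.2%). LSD1 peaks were listed near 19 members in fed muscle (31.1%, 19.9 to 44.3%; all genes 51.5%) and near 47 in starved muscle (77.0%, 64.5 to 86.8%; all genes 81.8%). The members' share was below that of all genes in each of these 4 lists, and outside the interval only for LSD1 in fed muscle. The starved lists are longer (37783 GR and 66332 LSD1 peaks, against 14108 and 16616 in fed muscle), which raises both shares. The deposited LSD1 starved list is far longer than the number of peaks that the study's text gives for it, and its counts here, near 47 members and at 10 promoters, hold for the list as deposited. A q-value of 0.01 or less was reached by 10.2% of the peaks of this list, against 45.5% for LSD1 fed, 34.7% for GR starved and 70.4% for GR fed. At that limit LSD1 starved peaks lay near 9 members (14.8%; all genes 21.4%) and at 2 promoters (3.28%; all genes 3.39%). LSD1 fed peaks lay near 10 (16.4%; all genes 32.0%) and at 4 promoters (6.56%; all genes 11.8%). Among peaks with a fold of at least 5 alone, the order for GR was the other way, with 6.56% of members against 5.94% of all genes in fed and 3.28% against 2.87% in starved muscle. The peak lists carry no read totals, so the depth behind each list is unknown here.

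**Figure D1:**
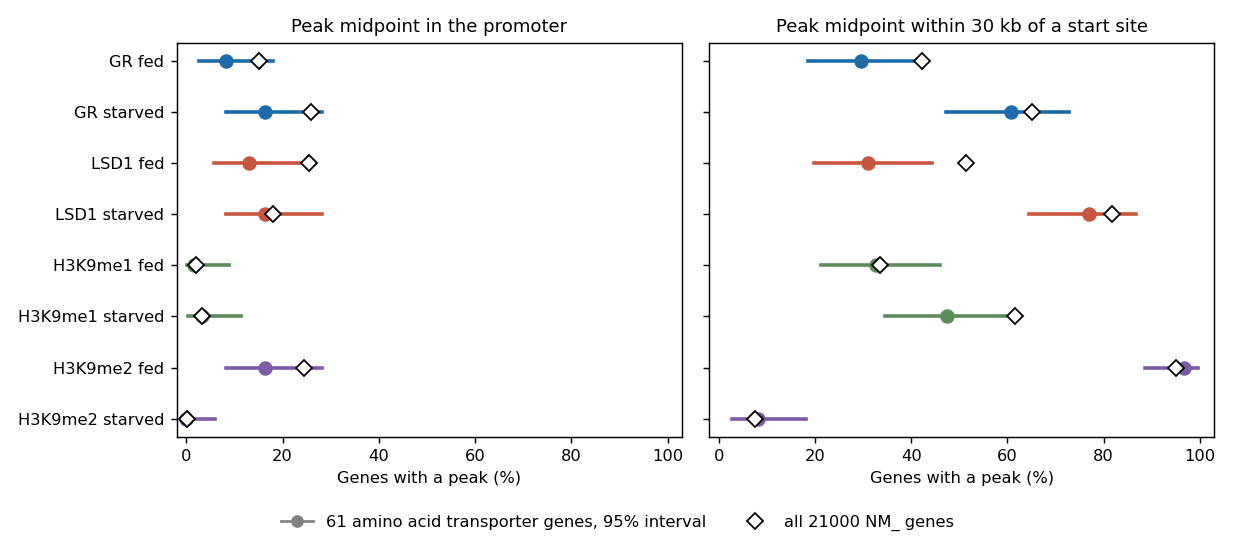
Share of genes (%) with a peak in each of the 8 lists, at the promoter (left) and within 30 kb of a start site (right). Filled circles are the 61 amino acid transporter genes with their 95% exact binomial interval and open diamonds are all 21000 NM_ genes. The diamond lies beyond the interval for LSD1 fed in both panels and for H3K9me1 starved on the right, and the other diamonds lie within it.

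Member genes differed from all NM_ genes in ways the choice by name did not use. Their median length was 34.0 kb, against 16.7 kb, and the median number of other genes with a start site within 30 kb was 0, against 1. The observed to expected CpG ratio of the promoter window reached 0.6 in 12 of 61 members (19.7%) and in 33.7% of all genes, with medians of 0.463 and 0.472. Among genes at or above this ratio, GR fed peaks lay at 2 of 12 member promoters, against 29.6% of all such genes, and LSD1 fed peaks at 4 of 12, against 50.9%. Among genes below it, GR fed peaks lay at 3 of 49 member promoters (6.12%), against 7.71%, and LSD1 fed peaks at 4 of 49 (8.16%), against 12.5%. The part of promoter sequence and gene spacing in the members' lower shares was not tested. The NRF1 motif GCGCATGCGC, a palindrome that is the same on both strands, was found in the promoter window of 1 member, Slc7a10 (1.64%, against 1.75% of all genes), and a GRE-like sequence with at most 1 mismatch in none (against 0.724%). No GR or LSD1 peak near a member held the NRF1 motif. Near any NM_ gene, 0.952% of GR fed, 0.688% of GR starved, 1.1% of LSD1 fed and 0.208% of LSD1 starved peaks held it. At such shares its absence near members does not set them apart.

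Members were also counted in 3 groups, and some members stand in none of them. The first group is called the muscle list here, although it was drawn up by function and not by tissue of expression. Of 21 members with a known part in muscle amino acid supply or mTORC1 signalling, GR had a promoter peak at 5 in fed and 6 in starved muscle, and LSD1 at 6 in each (23.8% for GR fed and 28.6% for each of the others). Each of these shares lay above that of all genes given above, though narrowly for GR starved (28.6% against 26.0%) and LSD1 fed (28.6% against 25.4%). In both of those lists the less studied Slc38a10 is among the genes counted. Of 12 neurotransmitter and neuronal transporters, none had a GR or LSD1 promoter peak in fed muscle. In starved muscle Slc6a17 had a GR and Slc6a15 an LSD1 promoter peak. Of 10 transporters of kidney and gut epithelium, Slc3a1 among them, which also stands in the muscle list, none had a promoter peak in any of the 4 lists. Within 30 kb, GR fed peaks lay near 12 of the 21 genes of the muscle list (57.1%; all genes 42.2%). They lay near none of the 12 neuronal or 10 epithelial genes. GR starved peaks lay near 16 of 21 (76.2%; all genes 65.2%), 6 of 12 and 3 of 10. LSD1 fed peaks lay near 9 of 21 (42.9%; all genes 51.5%), 1 of 12 and 0 of 10. LSD1 starved peaks lay near 17 of 21 (81.0%; all genes 81.8%), 10 of 12 and 9 of 10. For LSD1, the share of the muscle list within 30 kb lay below that of all genes in both conditions. The fed lists thus held few peaks near the neuronal and epithelial members, and the long LSD1 starved list held peaks near most members of each group. The groups were drawn up with earlier results of these data known, and all 5 members with a GR fed promoter peak stand in the muscle list. The counts therefore describe these groups only, and the difference between the groups was not tested.

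Other genes that handle amino acids gave a scale for these counts. Of 20 amino acid transporters outside the 6 families, GR had a promoter peak at 4 in fed and 8 in starved muscle and LSD1 at 5 and 6. Slc43a2, which encodes the neutral amino acid transporter LAT4, and Slc66a1, which encodes a lysosomal exporter of cationic amino acids, were in all 4 lists. Of 18 genes of amino acid sensing and response, GR had a promoter peak at 10 in fed (55.6%) and 11 in starved muscle (61.1%), and LSD1 at 8 (44.4%) and 11 (61.1%). Of these genes, 6 had one in all 4 lists, namely the glutamine synthetase gene Glul, the sestrin genes Sesn1 and Sesn3, and Flcn, Lamtor1 and Rragc, whose products act with mTORC1 at the lysosome. Of 10 skeletal muscle marker genes, 7 had a GR promoter peak in each condition and 10 had a GR peak within 30 kb in each. Liver, neuron and leukocyte markers, 5 of each, had no GR promoter peak in either condition. Within 30 kb, however, GR peaks lay near 2 of the liver, 0 of the neuron and 1 of the leukocyte markers in fed muscle, and near 4, 1 and 2 of them in starved muscle. LSD1 peaks lay near 2, 0 and 1 of these markers in fed and near 5, 4 and 4 in starved muscle. The liver marker Fgb had an LSD1 promoter peak in starved muscle. Of the muscle markers, 7 had an LSD1 promoter peak in fed and 5 in starved muscle.

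**Figure D2:**
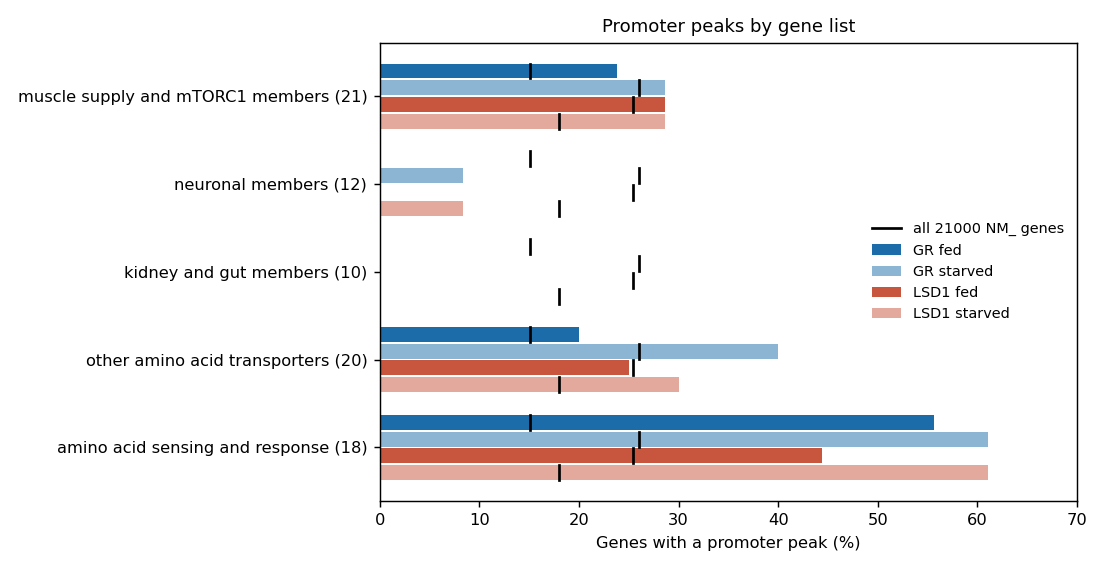
Share of genes (%) with a GR or LSD1 promoter peak in fed and starved muscle, for 3 groups of amino acid transporter genes and 2 related gene lists, with the number of genes in brackets. Black ticks give the share over all 21000 NM_ genes for the same peak list. The kidney and gut group has no bar, and the sensing genes lie between 44.4% and 61.1%.

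Slc6a6, which encodes the taurine transporter, was the member with a promoter peak in all 4 GR and LSD1 lists. The GR fed peak (chr6:91683329-91684173) had a fold enrichment over input of 3.31 (q = 0.000903) and the GR starved peak (chr6:91683936-91684160) one of 3.35 (q = 0.000129). The LSD1 fed peak (chr6:91683189-91684393) had a fold of 4.25 (q = 0.00522) and the LSD1 starved peak (chr6:91683833-91684277) one of 3.32 (q = 0.0462). The GR folds lay close together in fed and starved muscle, and the LSD1 fold was the lower one in starved muscle. In the starved GR list, 6 further peaks lay within 30 kb, 5 of them in introns of Slc6a6, with folds from 2.61 to 3.04. The fed GR list held no further peak there. The LSD1 fed list held intronic peaks at 9.64 and 10.8 kb from the start site, with folds of 3.92 and 3.51.

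In fed muscle 4 members had both a GR and an LSD1 promoter peak, namely Slc6a6, Slc38a10, Slc3a2 and Slc7a6, against 10.6% of all genes. Slc38a10, a less studied member of the sodium-coupled neutral amino acid family, had a GR peak of 2.91 (q = 0.00923) and an LSD1 peak of 4.22 (q = 0.00591) at its promoter in fed muscle. It kept a GR peak of 2.66 (q = 0.0179) in starved muscle, where no LSD1 peak was listed within 30 kb. Slc3a2 encodes the heavy chain shared by LAT1 and other light chains. It has 2 start sites, and its GR fed peak (fold 2.72, q = 0.0498) lay at one of them and its LSD1 fed peak (fold 3.64, q = 0.0312) at the other. Its GR fold was the lowest of all 27 GR fed peaks near members. Slc7a6, which encodes the light chain y+LAT2, had a GR peak of 3.12 (q = 0.00459) at -0.227 kb and an LSD1 peak of 3.65 (q = 0.0411) at -0.077 kb from the start site.

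In starved muscle 5 members had both, namely Slc1a5, Slc38a3, Slc38a6, Slc38a7 and Slc6a6, against 10.4% of all genes. Slc1a5 encodes the glutamine transporter ASCT2, and its GR peak of 2.74 (q = 0.013) and LSD1 peak of 3.65 (q = 0.00622) lay on the 2 sides of the start site without overlapping. Slc38a3, which encodes the glutamine transporter SNAT3, had a GR peak of 2.55 (q = 0.0211) and an LSD1 peak of 3.36 (q = 0.0603). Its fed GR peak of 3.15 (q = 0.000495) overlapped the starved one, but its midpoint lay 0.366 kb inside the gene and so outside the promoter window. An LSD1 fed peak of 3.71 (q = 0.0354) overlapped both GR peaks, with its midpoint 0.154 kb inside the gene. GR and LSD1 peaks thus lay together by the start site of Slc38a3 in fed muscle too. Slc38a7, which encodes a lysosomal glutamine transporter, had folds of 2.81 for GR (q = 0.0155) and 3.53 for LSD1 (q = 0.0454). At Slc38a6 the folds were 2.61 for GR (q = 0.0234) and 3.94 for LSD1 (q = 0.0104), and the nearest start site was that of the neighbouring gene Trmt5, so these peaks cannot be assigned to one of the genes. The q-values of these starved peaks were above 0.01 except those of LSD1 at Slc1a5 and of GR at Slc6a6.

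GR had a promoter peak in both conditions at 2 members, Slc38a10 and Slc6a6 (11.0% of all genes), and LSD1 at 3, Slc38a2, Slc38a6 and Slc6a6 (10.8% of all genes). Slc38a2 encodes SNAT2, the system A transporter that cells raise when amino acids are scarce. Its LSD1 promoter peak had a fold of 4.27 (q = 0.00385) in fed and 4.12 (q = 0.00374) in starved muscle. The GR starved peak at this gene (chr15:96698687-96700454, fold 3.02, q = 0.00265) spanned the whole promoter window shown above. Its midpoint lay 0.158 kb inside the gene, so it was not counted at the promoter. The GR fed peak (fold 2.93, q = 0.0107) lay in an intron with its midpoint at 0.653 kb. A site 10.1 kb upstream had a GR fed fold of 3.02, a GR starved fold of 2.67 and an LSD1 fed fold of 4.26. Slc38a2 thus had GR peaks in both lists by its start site, neither of which had its midpoint in the promoter.

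A GR promoter peak in starved but not in fed muscle was listed at 8 members (13.1%, against 15.0% of all NM_ genes). These include Slc38a3, where the fed GR peak named above overlapped it, and a pair of genes for importers of essential amino acids. Slc7a5, the LAT1 gene, had one at -0.084 kb with a fold of 3.02 (q = 0.00171), and Slc7a1, which encodes the cationic amino acid transporter CAT1, one at 0.031 kb with a fold of 2.64 (q = 0.0465). In fed muscle only, Slc1a4, the gene of the neutral amino acid transporter ASCT1, had a GR promoter peak of 3.25 (q = 0.00108). By midpoint Slc3a2 and Slc7a6 also had one in fed muscle only. GR starved peaks with folds of 2.78 and 2.57 overlapped those of Slc3a2 and Slc7a6, with midpoints outside the promoter window. In starved muscle Slc1a4 had an LSD1 promoter peak of 3.06 (q = 0.0775) and a GR peak of 3.03 (q = 0.00376) in an intron at 13.8 kb. Slc38a9, which encodes the lysosomal arginine sensor of mTORC1, had an LSD1 promoter peak of 3.73 (q = 0.0174) in fed muscle and no GR peak within 30 kb in either condition. The proton-coupled genes Slc36a1 to Slc36a4 had no GR or LSD1 promoter peak. Within 30 kb, Slc36a4 had the only GR peak of this family (starved, fold 2.54, q = 0.0761).

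**Figure D3:**
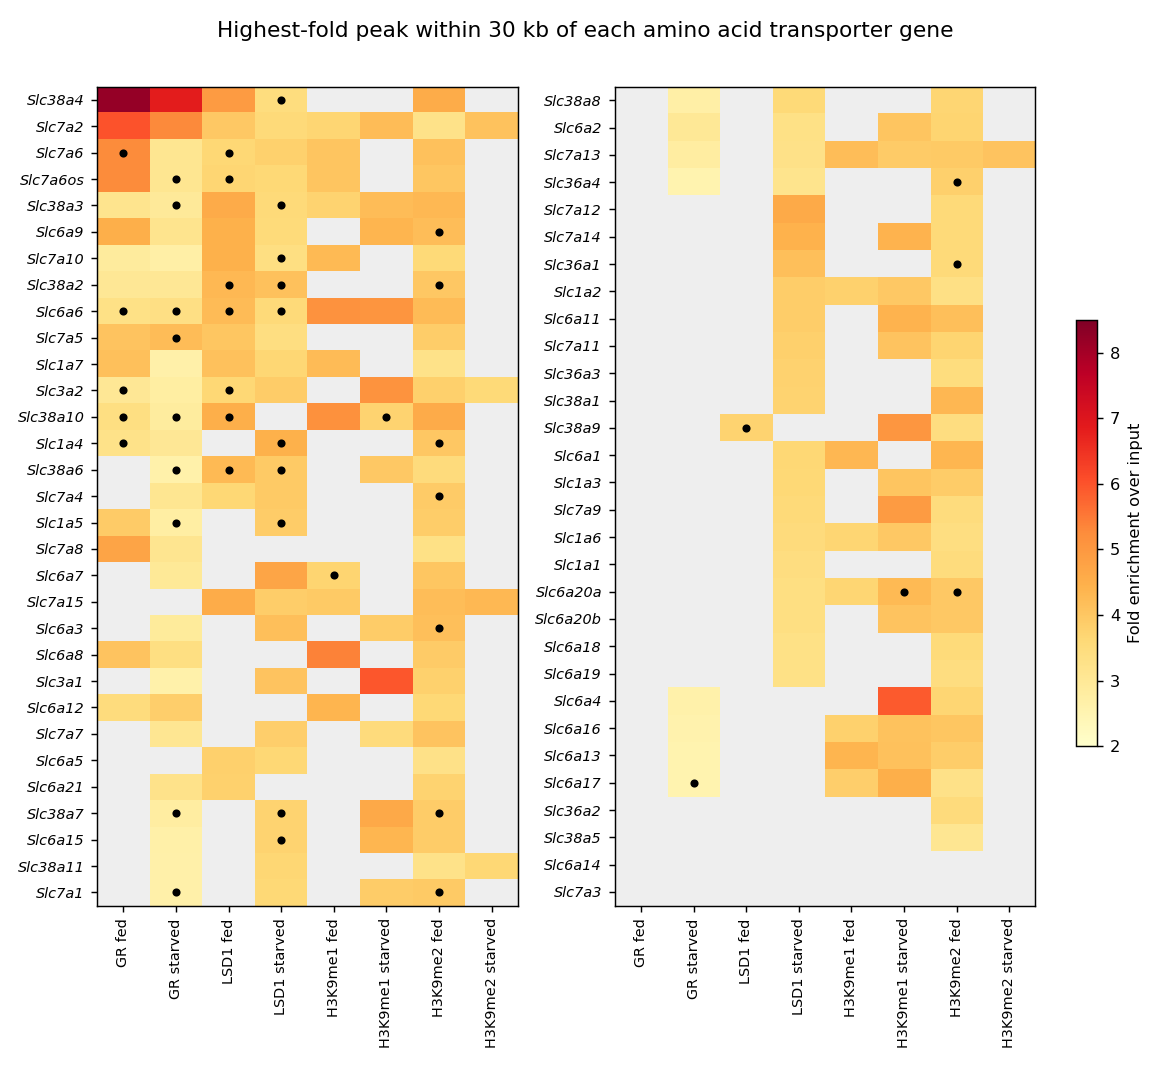
Highest fold enrichment over input among the peaks within 30 kb of each of the 61 genes (rows) in the 8 peak lists (columns). Black dots mark a promoter peak and grey means that no peak was listed. The highest folds are those of GR at Slc38a4, 8.2 in fed and 6.83 in starved muscle, and Slc6a6 is the row with dots in all 4 GR and LSD1 columns.

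The GR peaks of highest enrichment lay away from the promoters. The intronic Slc38a4 peak, whose middle is printed above, had a GR fed fold of 8.2 (chr15:97004332-97004728, q = 1.66e-25), a GR starved fold of 6.83 (q = 2.27e-20) and an LSD1 fed fold of 4.93 (q = 0.000582). A peak beside it, with its midpoint in a coding exon (chr15:97005688-97006116), had folds of 6.52 and 6.53 for GR in fed and starved muscle and 3.8 for LSD1 in fed muscle. They lay 15.8 and 14.5 kb into the gene from the nearest of its 3 start sites. No LSD1 starved peak overlapped either of them. In starved muscle LSD1 had instead a promoter peak of 3.46 (q = 0.0442) at another start site of this gene.

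Slc7a2, which encodes the cationic amino acid transporter CAT2, had an intronic GR peak 16.8 kb from its start site (chr8:40879012-40879376). Its fold was 5.99 in fed (q = 6.93e-15) and 5.28 in starved muscle (q = 1.8e-13), and the LSD1 peaks there had folds of 3.98 (q = 0.0196) and 3.55 (q = 0.0622). The LSD1 starved peak reached the GR fed peak but not the GR starved one. At Slc7a5 the GR peak in an intron at 17.3 kb (chr8:121889979-121890714) had a fold of 4.08 in fed (q = 1.41e-07) and 4.21 in starved muscle (q = 3.18e-10). LSD1 peaks of 4.01 (q = 0.00494) and 3.42 (q = 0.0338) overlapped it. It was the only GR fed peak within 30 kb of Slc7a5, whereas the starved list held 7. Slc7a2 and Slc7a5 thus each had an intronic site at which peaks of all 4 lists were found, at about the same distance into the gene.

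Slc7a6 had an intronic GR peak at 17.1 kb (chr8:106185722-106186311) with a fold of 5.25 in fed (q = 7.36e-11) and 3.1 in starved muscle (q = 0.002), and no LSD1 peak overlapped it. The same peak is within 30 kb of Slc7a6os. Slc7a8, the gene of the light chain LAT2, had an intronic GR fed peak of 4.73 (q = 8.81e-09) at 1.92 kb that no GR starved peak overlapped. Slc6a9, which encodes the glycine transporter GlyT1, had GR folds of 4.51 (q = 1.77e-08) and 3.15 (q = 0.00109) in an intron at 10.7 kb, with an LSD1 fed fold of 3.8 (q = 0.0411). The start site nearest to this peak was that of Ccdc24. Slc6a8, the creatine transporter gene, had GR folds of 4.08 (q = 4.44e-06) in fed and 3.38 (q = 0.00013) in starved muscle in an intron, and no LSD1 peak within 30 kb. Slc1a7 encodes a glutamate transporter known from the retina. Its GR fed peak of 4.14 (q = 3e-06) and LSD1 fed peak of 4.11 (q = 0.0145) lay 6.17 and 6.11 kb upstream. Slc6a12, the betaine transporter gene, had a higher GR fold in starved muscle (3.83, q = 7.85e-06) than in fed muscle (3.48, q = 0.0011). Slc1a5 had a GR fed peak of 3.92 (q = 1.65e-05) 20.0 kb upstream that an LSD1 starved peak of 3.89 overlapped.

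**Figure D4:**
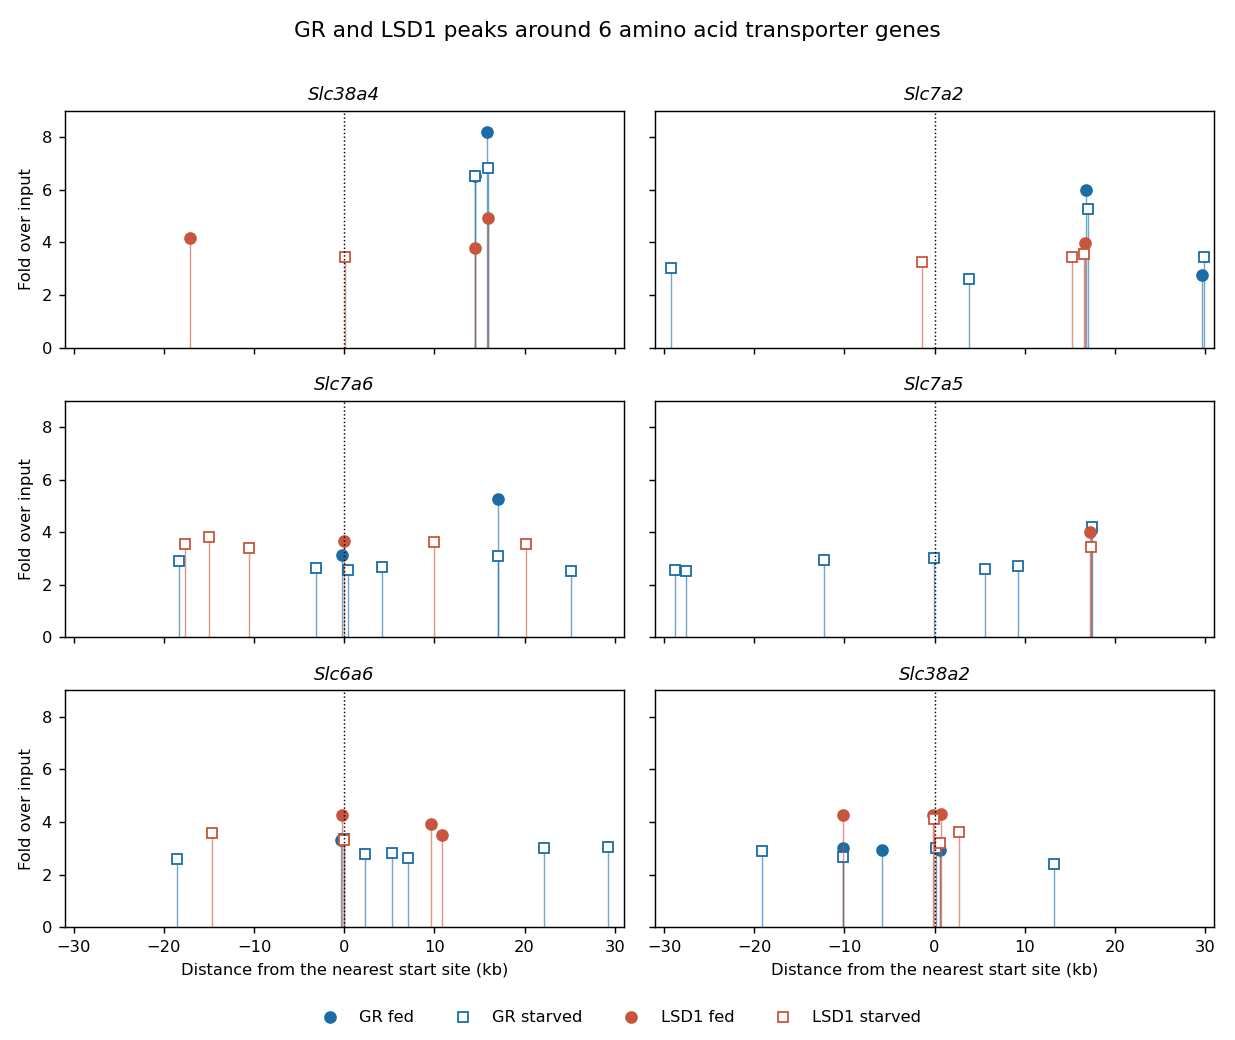
GR (blue) and LSD1 (red) peaks around 6 genes by distance of the peak midpoint from the nearest start site (kb, positive into the gene) and fold enrichment over input. Filled circles are fed and open squares starved muscle. The highest points of Slc38a4, Slc7a2, Slc7a6 and Slc7a5 lie 15.8 to 17.5 kb inside the gene, while those of Slc6a6 and Slc38a2 are LSD1 fed peaks within 1 kb of the start site.

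As a set, the 27 distinct GR fed peaks near members had a median fold of 3.25, and the 9240 GR fed peaks near any NM_ gene one of 3.21. A fold of at least 5 was reached by 4 of 27 (14.8%, against 9.03% of the peaks near any gene) in fed muscle, and by 3 of 102 (2.94%, against 1.58%) in starved muscle. These are the peaks of Slc38a4, Slc7a2 and, in fed muscle, Slc7a6. The 31 LSD1 fed peaks had a median of 4.01 and a maximum of 4.93, and the 104 LSD1 starved peaks a median of 3.54 and a maximum of 4.7. Of the GR fed peaks, 13 of 27 lay in introns, 6 in a promoter, 6 between genes and 2 in exons. For 24 of the 27 the nearest start site was that of a member.

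The highest LSD1 folds near members lay both at GR peaks and away from them. After Slc38a4, the highest in fed muscle were 4.57 at a site in an intron of Sema3f 25.8 kb upstream of Slc38a3, 4.54 in an intron of Slc7a15, 4.5 in an intron of Slc38a10 and 4.44 at Slc6a9 and at a site near Slc7a10 in the promoter of Lrp3. In starved muscle they were 4.7 near Slc6a7, 4.61 near Slc7a12, 4.45 near Slc1a4, 4.42 near Slc7a14 and 4.17 near Slc36a1. Each of these 5 starved peaks was 49 bp long, the shortest length in that list, and none overlapped a GR peak. Slc7a12 and Slc7a14 had no GR peak within 30 kb in either condition.

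Fed and starved peaks were next compared by position. Of the 27 GR fed peaks near members, 18 (66.7%, 46.0 to 83.5%) shared at least 1 bp with a GR starved peak, against 69.7% of the GR fed peaks near any gene. Of the 102 GR starved peaks, 18 (17.6%, 10.8 to 26.4%) shared bases with a GR fed peak, against 26.7%. Of the 31 LSD1 fed peaks, 6 (19.4%, 7.45 to 37.5%) shared bases with an LSD1 starved peak, against 25.7%. Of the 104 LSD1 starved peaks, 6 (5.77%, 2.15 to 12.1%) shared bases with an LSD1 fed peak, against 11.6%. Counted by gene, the 18 members with a GR peak within 30 kb in fed muscle had one in starved muscle too, 19 members had one in starved muscle only, and none in fed muscle only. These are 29.5%, 31.1% and 0.0% of members, against 39.8%, 25.4% and 2.35% of all NM_ genes. For LSD1, 16 members had a peak in both conditions, 31 in starved and 3 in fed muscle only (Slc38a10, Slc38a9 and Slc6a21). These are 26.2%, 50.8% and 4.92% of members, against 47.4%, 34.3% and 4.11% of all NM_ genes.

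In the 18 overlapping GR pairs the starved fold was the lower one in 11, with a median ratio of starved to fed of 0.899. Near any NM_ gene it was the lower one in 78.2% of pairs, with a median of 0.888. Among the 7 pairs in which it was not lower were those of Slc7a5, Slc6a6, Slc6a12 and Slc3a2, and the second site of Slc7a2 at 29.7 kb (2.78 in fed, 3.46 in starved muscle). In the 6 overlapping LSD1 pairs, at Slc38a2, Slc38a6, Slc6a6, Slc7a2 and Slc7a5, the starved fold was the lower one in each, as in 87.0% of pairs near any gene, with medians of 0.872 and 0.855. Folds of the 2 lists come from libraries with different inputs, and the ratio near members stayed close to that near all genes.

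**Figure D5:**
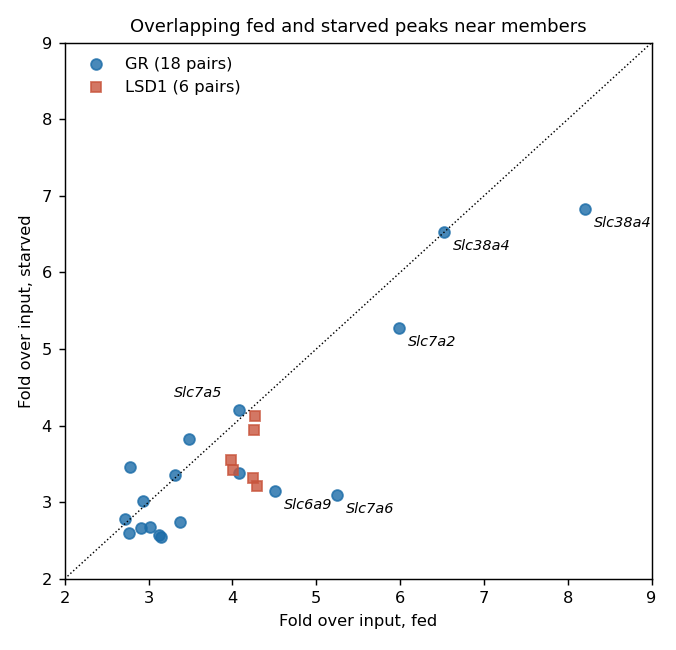
Fold enrichment over input of overlapping fed (x axis) and starved (y axis) peaks within 30 kb of members, 18 pairs for GR (circles) and 6 for LSD1 (squares). The dotted line marks equal folds. The 6 LSD1 pairs lie below the line, and the GR pairs with the highest folds are those of Slc38a4 and Slc7a2.

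The histone marks went in opposite directions between the fed and starved lists. H3K9me2 peaks were listed within 30 kb of 59 of 61 members in fed muscle (96.7%, 88.7 to 99.6%; all genes 95.1%) and of 5 in starved muscle (8.2%, 2.72 to 18.1%; all genes 7.45%), namely Slc38a11, Slc3a2, Slc7a13, Slc7a15 and Slc7a2. The distinct H3K9me2 peaks near members numbered 292 in fed and 6 in starved muscle, and the whole lists held 171402 and 6624. At the promoter the H3K9me2 count was 10 members in fed muscle (16.4%; all genes 24.4%), among them Slc38a2, Slc7a1, Slc1a4 and Slc36a1. It was 0 of 61 in starved muscle, whose exact interval reaches 5.87% (all genes 0.19%). H3K9me1 peaks lay within 30 kb of 20 members in fed muscle (32.8%, 21.3 to 46.0%; all genes 33.6%) and of 29 in starved muscle (47.5%, 34.6 to 60.7%; all genes 61.6%). The whole H3K9me1 lists held 14178 and 38023 peaks. With the longer list of each mark shortened to the length of the other, H3K9me1 starved peaks lay near 15 members and H3K9me2 fed peaks near 4. At equal length the direction thus held for neither mark. H3K9me1 was listed at 1 member promoter in fed muscle, that of Slc6a7 (1.64%; all genes 2.08%), and at 2 in starved muscle, those of Slc38a10 and Slc6a20a (3.28%; all genes 3.2%). The share of members with H3K9me1 in starved muscle lay below that of all genes and just outside the interval. For both marks the fed and the starved library carry different library preparation codes in the labels, so condition and preparation cannot be told apart.

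The remaining members had lower folds or no peaks. GR peaks were listed in starved muscle only near 19 members, and the highest GR fold of each of these genes lay between 2.54 and 3.22. They include Slc7a1, Slc38a7 and Slc36a4 of the muscle list, and Slc3a1, which stands in both the muscle and the epithelial list. The others are Slc38a6, Slc38a8, Slc38a11, Slc7a4, Slc7a7, Slc7a13 and 8 further genes of the Slc6a family beside Slc6a21, which had the 3.22. An LSD1 but no GR peak lay within 30 kb of 20 members (32.8%, against 22.0% of all NM_ genes), and in 17 of these (27.9% of members, against 18.8%) the LSD1 peaks were in the starved list alone. Those 17 include Slc7a11, the cystine transporter gene, with a fold of 3.81 (q = 0.0422), the glutamine transporter gene Slc38a1 with 3.75 (q = 0.019) and the glutamate transporter gene Slc1a3 with 3.61 (q = 0.0567). Slc7a6os had a GR promoter peak of 2.53 (q = 0.0231) in starved and an LSD1 promoter peak of 3.68 (q = 0.0187) in fed muscle, and its window shares peaks with Slc7a6. Slc36a2, Slc38a5, Slc6a14 and Slc7a3 had no GR or LSD1 peak within 30 kb, and Slc6a14 and Slc7a3 no peak of any list.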

How the data were processed

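Chromatin of fed and 24 h starved mouse limb muscle was immunoprecipitated for 4 antigens, with 1 library each and 1 input library per condition. According to the methods and labels, the authors demultiplexed single-end reads (bcl2fastq 2.20.0.422), mapped them to mm10 (GRCm38) with Bowtie, kept unique reads, removed blacklisted regions and called broad peaks against the input with MACS2. The deposited peak lists give a score (not used here), the fold enrichment over input, which MACS2 averages over the region of a broad peak, and the −log10 p and −log10 q of each peak as the authors' caller wrote them. The q-values printed here are the deposited −log10 q turned back to q. The largest q in the 8 lists lay between 0.0925 and 0.0998, so the deposited lists go beyond the limit of 0.01 on the false discovery rate that the methods state. All deposited peaks were used, and the stated limit was an alternative. A fold near the list's lower end is that of a peak near the caller's threshold, and a peak absent from a list may lie just under it.

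Start sites were those of 37867 RefSeq NM_ transcripts of 21000 genes. A peak was placed by its midpoint, from 1 kb upstream to 100 bp downstream of a start site for promoters and within 30 kb otherwise, and overlap meant at least 1 bp. Intervals are exact (Clopper-Pearson) at 95% (SciPy 1.17.1, with pandas 2.3.3 and NumPy 2.4.6 in Python 3.11.15). GRE-like sequences matched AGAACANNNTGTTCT on either strand with at most 1 mismatch. No read totals were used here, so no depth is given. The counting steps were tested on simulated peaks with known positions. Genes were named when they had both promoter peaks in fed muscle, when they had one of the 10 highest GR or 5 highest LSD1 folds of a condition, when they stood in the list of muscle supply and mTORC1 genes, or as up to 6 examples without promoter peaks. Further genes were named after their values were seen. These are Slc6a7, Slc6a15, Slc6a17, Slc6a20a and Slc7a10 in counts of 5 or fewer, the members with promoter peaks of both proteins in starved muscle, and those that account for the remaining members. The members, lists and rules were chosen with earlier results of these data known. Alternatives were stricter q and fold limits, equally long lists, other promoter windows, any overlapping base, the most upstream start site, and 10 kb. The sequence of Slc6a7 is not reported here.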

Additional observations from a re-analysis of the deposited data

Results flagged for a closer look

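Both H3K9 marks differed between the fed and starved lists in opposite directions at these genes. H3K9me1 peaks lay within 30 kb of 20 members in fed and 29 in starved muscle, whereas H3K9me2 peaks lay near 59 in fed and 5 in starved muscle. This difference was not tested, as each mark has 1 library per condition, and since the fed and starved libraries of each mark carry different preparation codes, condition and preparation cannot be told apart.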

How the results depend on the processing

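Counts of members moved with the limits set on peaks (peak list, promoter then 30 kb). With a q of 0.01 or less, 2 and 20 members had GR starved peaks, 4 and 10 LSD1 fed, 2 and 9 LSD1 starved, 0 and 13 H3K9me1 fed, 1 and 16 H3K9me1 starved, 4 and 35 H3K9me2 fed peaks, and 1 member had an H3K9me2 starved peak within 30 kb. GR and LSD1 were then both at 2 promoters in fed and 0 in starved muscle, and in both conditions GR stood at 1 and LSD1 at 1. With a fold of at least 5, no promoter peak of any antibody remained (0), and peaks within 30 kb were left near 4 members for GR fed, 2 for GR starved, 3 for H3K9me1 fed, 5 for H3K9me1 starved and 0 for LSD1 and H3K9me2 in either condition. With the longer list of an antibody shortened to the length of the other, the counts were 3 and 22 for GR starved, 2 and 22 for LSD1 starved, 1 and 15 for H3K9me1 starved, and 0 and 4 for H3K9me2 fed. With a promoter of 1 kb on each side, 8 members had a GR fed and 4 an H3K9me1 starved promoter peak, and 7 had GR and 5 LSD1 in both conditions, while 5 had GR in both conditions with any base of a peak counted. Within 10 kb the counts were 12 for LSD1 fed, 25 for LSD1 starved, 7 for H3K9me1 fed, 14 for H3K9me1 starved and 2 for H3K9me2 starved. With 2 mismatches, 3 GR fed and 6 GR starved peaks held a GRE-like sequence. The cause of these moves was not tested beyond the shorter lists and wider windows themselves. The other 54 recomputed counts stayed within 1.5 times the reported one, those without Slc7a6os among them, an alternative chosen after seeing the data, as was the limit of 2 mismatches. The members' share with a promoter peak lay below that of all genes in 6 of 6 settings for each GR and LSD1 list. Within 30 kb this held in 5 of 5 for LSD1 and 4 of 5 for GR, the exception being the fold of at least 5. Some of these settings could hardly show otherwise. Shortening the longer list left the GR and LSD1 fed lists as reported. With a fold of at least 5, no more than 0.867% of all genes had a promoter peak in each of these lists. For LSD1 starved promoters at a q of 0.01 or less, the shares were 3.28% of members and 3.39% of all genes. No paired analysis was possible because each group holds 1 library.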
